A study of Homo sapiens with 6 samples.

Results

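The genes described here encode 42 glycoproteins, proteoglycans and basement membrane chains of the extracellular matrix or, for CD248, the cell surface, collagens left out. They were chosen by symbol for what their proteins do, with earlier results of these data known. Of these 42 symbols, 41 had a row in the deposited table of 16376 genes, and MGP was not analysed here. RNA was sequenced from HOS, a human osteosarcoma cell line recorded as wild type, after 24 h with Agrimol B, a phloroglucinol derivative of agrimony plants, and from control HOS cells recorded as having no treatment. Each group held 3 libraries. The sources used here do not give the dose or say whether the control cells received solvent, and all libraries come from 1 cell line. Nothing in the labels says that the replicates were separate cultures, so each p-value is set against the variation among these libraries, possibly technical in origin.

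Matrix glycoproteins such as fibronectin, tenascins and thrombospondins link cells to the fibres around them and tune adhesion. Fibrillins build microfibrils, on which elastin and fibulins assemble and to which the latent TGF-beta binding proteins dock with their growth factor. Laminins are trimers of an alpha, a beta and a gamma chain that form the sheet of the basement membrane, with nidogens, perlecan and agrin bound to it. In bone, SPARC (osteonectin), biglycan and decorin are classic non-collagenous components made by osteoblasts.

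Levels are FPKM, which divides fragments by the length of the transcript and the size of the library, so genes can be compared per length. Group means are given ± SD (n = 3 libraries per group), a fold is the ratio of 2 group means, and a difference is Agrimol B minus control in log2(FPKM + 1). A gene was called when limma's adjusted p was under 0.05, adjusted over the 12143 genes whose mean across the 6 libraries reached 1 FPKM. Between 11993 and 12134 genes reached 1 FPKM per library. Depth relative to control replicate 1, read from the lowest values, was 0.989 and 1.04 in control replicates 2 and 3. In Agrimol B replicates 1, 2 and 3 it was 1.005, 1.19 and 1.16. Each estimate rests on only 19 to 34 genes, and the number of reads is unknown.

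The osteoblast markers COL1A1, COL1A2, RUNX2, ALPL, DLX5 and SPP1 were above 1 FPKM in all 6 libraries, while BGLAP (osteocalcin) was at or below 0.221 FPKM, and SP7 and IBSP were not analysed here. The summed level of the 6 markers above and BGLAP was 507 to 535 FPKM in control and 333 to 358 FPKM in Agrimol B libraries, most of it COL1A1 (419.5 and 293.5 FPKM on average) and COL1A2 (70.7 and 25.9 FPKM). COL1A1, COL1A2 and ALPL were called lower (limma adjusted p = 0.000256, 4.54e-05 and 0.000375), ALPL from 16.45 to 7.66 FPKM. SPP1, osteopontin, rose from 3.52 to 7.67 FPKM (adjusted p = 0.000882), and RUNX2 and DLX5 were not called (adjusted p = 0.310 and 0.349). Of the 4 endothelial markers, none passed 0.410 FPKM, and their sum was 0.538 to 0.817 FPKM in control and 0.336 to 0.340 FPKM in Agrimol B libraries. Within it PECAM1, CDH5 and VWF were lower, while KDR was higher (mean 0.0594 FPKM in control and 0.267 FPKM with Agrimol B). The 4 leukocyte markers summed to 5.35 to 5.86 FPKM in control and 7.88 to 11.04 FPKM in Agrimol B libraries, mostly CD68, with the defining marker PTPRC at 0 in 5 of 6 libraries. The 4 epithelial markers summed to 13.5 to 15.6 FPKM in control and 13.1 to 31.2 FPKM in Agrimol B libraries. EPCAM stood at 12.8 to 14.7 FPKM in all 6 libraries, but KRT5 and KRT14 were at 10.4 and 5.87 FPKM in Agrimol B replicate 3, against at most 0.735 and 0.745 FPKM in the others. KRT6A, KRT16, KRT17, S100A8 and S100A9, examined after the values were seen, reached at most 0.490, 0.163, 1.295, 0.0966 and 0.169 FPKM outside that library. In Agrimol B replicate 3 they were at 5.49, 1.59, 5.89, 4.08 and 5.35 FPKM. Results were therefore also computed without that library, and the part of these markers in the results was not tested. Without it 27 of the 29 calls below remained.

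**Figure D1:**
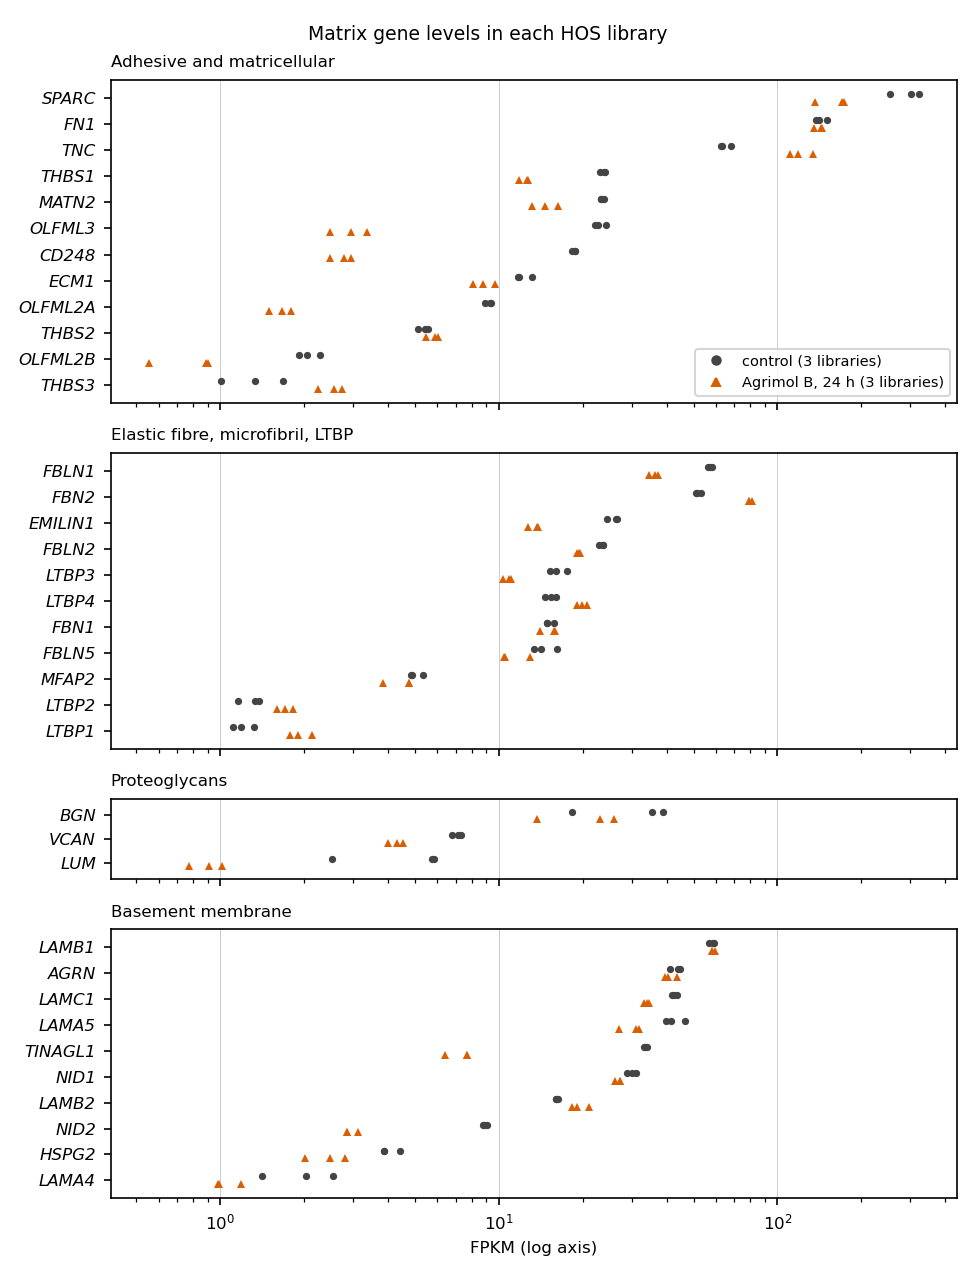
FPKM of the 36 tested matrix genes in each library on a log axis, in 4 role groups ordered by their control mean. Circles are the 3 control and triangles the 3 Agrimol B libraries. SPARC, FN1 and TNC stand highest, and the wide gaps belong to less abundant genes such as OLFML3, CD248 and TINAGL1.

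With Agrimol B most of these matrix genes were lower. Among tested members the deepest falls were in genes with control means of 4.71 to 33.5 FPKM rather than in the most abundant ones. The filter leaves out low genes such as MFAP4, whose mean fell 5.30-fold, and the added 1 FPKM shrinks differences of low genes. Of 36 members tested, 29 changed (80.6%, against 52.0% of all tested genes): 22 were lower (61.1%, against 21.4%) and 7 higher (19.4%, against 30.6%). Their median difference was -0.46, beside 0.07 over all tested genes. The list was chosen with earlier results of these data known, so these shares are a description. The balance over all genes depended on the scaling: 3713 were higher and 2598 lower as deposited, and 3084 higher and 3150 lower after median-ratio scaling, where the members had 7 higher and 22 lower calls. Quantile normalization gave 3101 higher and 3083 lower genes, and 5 higher and 22 lower members. The 3 libraries of one group lay wholly to 1 side of the other for 30 members (83.3%, against 62.2%): all 29 called ones and MFAP2. LUM and OLFML2B passed the filter through their control libraries alone, since their Agrimol B means were under 1 FPKM. RNA of a whole culture cannot tell fewer cells with a transcript apart from less transcript per cell.

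Falls of at least 1 in log2(FPKM + 1) were found for 6 members (16.7%, against 1.70% of all tested genes). These were OLFML3, CD248, TINAGL1, OLFML2A, LUM and NID2, with control means of 4.71 to 33.5 FPKM and falls of 3.03-fold to 7.84-fold. The other 16 lower members fell 1.12-fold to 2.67-fold, and the 7 higher members rose 1.21-fold to 1.88-fold. OLFML2B, at 2.67-fold, reads -1.33 with a pseudocount of 0.1 FPKM, so the count of 6 depends on the pseudocount. LUM, among the 6, passed the filter through its control libraries alone. The 9 members above 40 FPKM in control had ratios of Agrimol B to control between 0.548 and 1.87. Summed over the 41 genes, the level was 1203, 1206 and 1105 FPKM in the control and 952, 901 and 962 FPKM in the Agrimol B libraries. The groups did not overlap in this sum, and without SPARC the ratio of the group means moved from 0.801 to 0.885.

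**Figure D2:**
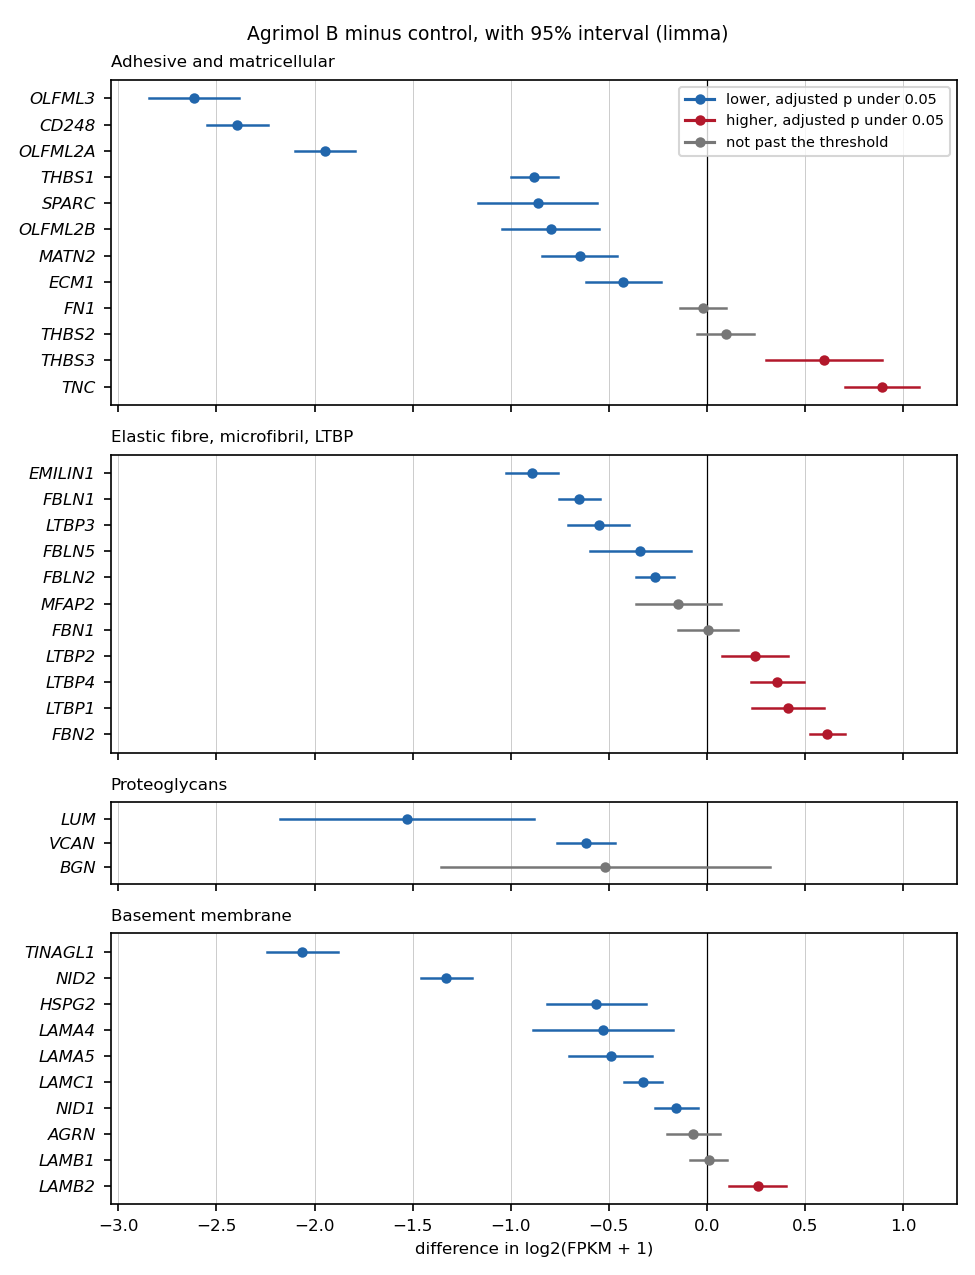
Difference in log2(FPKM + 1), Agrimol B minus control, for the 36 tested genes, with the 95% interval from limma as a bar. Blue genes were lower, red genes higher and grey genes not past adjusted p 0.05. TNC lies farthest right at 0.89 and OLFML3 farthest left at -2.61.

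The promoters of 4 members are shown because they set a related pair with different outcomes, FBN1 and FBN2, beside a strong fall, OLFML2A, and a rise, LTBP1. They are the 250 bases before the RefSeq start on GRCh38.p14, 5′ to 3′ on the gene's strand. Capitals mark GGGCGG, the GC box read by SP1, on either strand.
FBN1, chr15:48644971-48645220, minus strand: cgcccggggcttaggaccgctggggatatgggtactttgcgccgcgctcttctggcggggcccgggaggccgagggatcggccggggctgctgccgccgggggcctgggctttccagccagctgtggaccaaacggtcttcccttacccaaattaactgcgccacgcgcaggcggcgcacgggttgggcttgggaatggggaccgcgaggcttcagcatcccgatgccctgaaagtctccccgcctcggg
FBN2, chr5:128538246-128538495, minus strand: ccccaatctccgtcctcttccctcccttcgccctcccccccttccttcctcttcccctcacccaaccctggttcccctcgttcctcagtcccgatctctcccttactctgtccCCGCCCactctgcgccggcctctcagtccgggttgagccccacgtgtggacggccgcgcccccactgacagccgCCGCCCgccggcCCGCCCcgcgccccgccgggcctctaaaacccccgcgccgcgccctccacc
OLFML2A, chr9:124776883-124777132, plus strand: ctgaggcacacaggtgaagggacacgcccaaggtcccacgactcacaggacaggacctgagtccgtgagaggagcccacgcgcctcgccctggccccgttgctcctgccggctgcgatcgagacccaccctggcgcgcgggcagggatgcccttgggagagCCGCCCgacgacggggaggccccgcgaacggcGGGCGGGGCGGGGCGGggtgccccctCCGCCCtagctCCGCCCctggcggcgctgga
LTBP1, chr2:32946703-32946952, plus strand: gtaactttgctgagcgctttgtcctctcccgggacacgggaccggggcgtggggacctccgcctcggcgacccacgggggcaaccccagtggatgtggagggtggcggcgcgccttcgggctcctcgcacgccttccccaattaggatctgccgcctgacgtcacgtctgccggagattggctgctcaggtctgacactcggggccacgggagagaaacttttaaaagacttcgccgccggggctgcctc

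The FBN2 window held 3 such boxes and the OLFML2A window 6, while FBN1 and LTBP1 held none. Across members, 32 had an entry, and 25 of these (78.1%) held the box, compared with 69.5% of the promoters of tested genes and 42.3% of all 27305 promoters, taking the first entry for each symbol. It was found in 16 of 18 lower, 6 of 7 higher and 3 of 6 uncalled members. The median GC content of these windows was 68.4% for the members and 65.6% for tested genes. The AP-1 motif TGANTCA was present in 3 of the 32 (9.38%, against 3.66% of the promoters of tested genes and 6.60% of all promoters), namely ECM1, MFAP2 and POSTN. TEAD's GGAATG was present in 6 (18.8%, against 9.21% and 11.9%) and the SMAD-type CAGACA in 6 (18.8%, against 9.33% and 13.6%). TATAAA was present in 3 (9.38%), a share above that of the promoters of tested genes (4.81%) and below that of all promoters (11.1%). The C/EBP-ATF motif TGATGNAA was present in 0 (against 1.31% and 3.19%). All motifs were searched on both strands, and a match is only a match of letters. Some member windows lay partly in annotated exons of their own gene, and those of SPARC, LTBP4 and VCAN wholly. The part of these exons in the shares was not tested.

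Among the adhesive and matricellular glycoproteins, which modulate contacts between cells and matrix, 8 of 12 tested members fell and 2 rose. These shares were 66.7% and 16.7%, against 21.4% and 30.6% of all tested genes. OLFML3, a secreted olfactomedin-domain glycoprotein (GENCODE 29, GRCh38 chromosome 1, 113979391 to 114035572, plus strand), was at 22.2, 24.2 and 22.6 FPKM in control and 3.38, 2.47 and 2.94 FPKM in Agrimol B libraries. Every treated library thus lay far below every control library, and the fall was 7.84-fold (difference -2.61, 95% interval -2.84 to -2.39, adjusted p = 1.94e-05). CD248, or endosialin, a surface glycoprotein of stromal cells that binds matrix proteins (chromosome 11, 66314487 to 66317044, minus strand), was at 18.8, 18.2 and 18.8 FPKM in control and 2.79, 2.47 and 2.95 FPKM in Agrimol B libraries. It fell 6.80-fold (difference -2.39, adjusted p = 1.06e-05), and its groups were also far apart. OLFML2A, another olfactomedin-domain protein (chromosome 9, 124777158 to 124814885, plus strand), went from 8.91, 9.33 and 9.38 FPKM to 1.79, 1.67 and 1.498 FPKM, or 5.58-fold lower (adjusted p = 1.42e-05). Its relative OLFML2B fell from 2.09 ± 0.181 to 0.780 ± 0.195 FPKM (difference -0.80, adjusted p = 0.00125), a difference that reads -1.33 with a pseudocount of 0.1 FPKM. All 3 olfactomedin-like members were therefore lower.

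SPARC, a collagen-binding glycoprotein abundant in bone (chromosome 5, 151661096 to 151687165, minus strand), was the most abundant member, at 303, 321 and 253 FPKM in control and 170, 137 and 173 FPKM in Agrimol B libraries. The groups did not overlap, although each had a spread of over 20 FPKM (SD 35.4 and 20.3), and SPARC fell 1.82-fold (adjusted p = 0.00206). Its share of the summed level of the 41 genes was 22.8% to 26.6% in control and 15.2% to 18.0% in Agrimol B libraries. FN1, fibronectin, a ligand of the RGD-binding integrins, stood at 141, 151 and 138 FPKM in control and 143, 136 and 145 FPKM in Agrimol B libraries. These values overlapped, and the 95% interval of the difference ran from -0.14 to 0.10 (adjusted p = 0.743).

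TNC, tenascin-C, a glycoprotein that modulates adhesion to fibronectin (chromosome 9, 115019578 to 115118257, minus strand), moved the other way. It was at 68.3, 62.9 and 63.1 FPKM in control and 111, 119 and 134 FPKM in Agrimol B libraries, a rise of 1.87-fold (difference 0.89, adjusted p = 0.000284). No library of the groups overlapped, and the share of TNC in the summed level went from a mean of 5.53% to 12.9%.

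The thrombospondins, secreted calcium-binding glycoproteins, went in different directions. THBS1, which can activate latent TGF-beta, fell from 24.1, 23.0 and 23.9 FPKM to 11.8, 12.6 and 12.8 FPKM, or 1.91-fold (adjusted p = 6.58e-05). THBS2 was at 5.37 ± 0.233 and 5.80 ± 0.305 FPKM, with overlapping libraries and an interval of -0.05 to 0.24 (adjusted p = 0.235). THBS3 rose from 1.00, 1.33 and 1.68 FPKM to 2.25, 2.56 and 2.74 FPKM (1.88-fold, adjusted p = 0.00784), close to the filter. Exons of MTX1 and another gene on the opposite strand cover 25.4% of the exonic bases of THBS3, and no source used here says whether the counting used strand. MTX1, examined after its values were seen, was at 4.93 ± 0.273 and 4.79 ± 0.685 FPKM. Of the remaining members of this group, MATN2, a matrilin that bridges filaments, fell 1.60-fold from 23.5 ± 0.290 FPKM (adjusted p = 0.000991), and ECM1 fell 1.38-fold from 12.2 ± 0.766 FPKM (adjusted p = 0.00507). POSTN, periostin, was listed at 0 in the 3 Agrimol B libraries and at 0.0254, 0.0257 and 0.198 FPKM in control, under the filter for testing.

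Elastic fibre and microfibril genes were split: of 11 tested, 5 fell (45.5%, against 21.4% of all tested genes) and 4 rose (36.4%, against 30.6%). Their median difference was -0.15. FBN1, the principal fibrillin of adult microfibrils, was at 15.8, 14.9 and 14.9 FPKM in control and 15.8, 14.1 and 15.9 FPKM in Agrimol B libraries. Those values overlapped fully (interval -0.15 to 0.16, adjusted p = 0.967). FBN2, the fibrillin best known from development (chromosome 5, 128257909 to 128659185, minus strand), was the more abundant of the pair and rose from 53.1, 51.5 and 50.8 FPKM to 81.0, 78.7 and 79.2 FPKM. Its libraries were tight in both groups, and the rise was 1.54-fold (difference 0.61, adjusted p = 8.16e-05). EMILIN1, an elastin microfibril interface protein, fell 1.92-fold, from 26.2, 26.5 and 24.5 FPKM to 12.8, 13.7 and 13.9 FPKM (adjusted p = 8.94e-05).

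All 3 fibulins among the members were lower. Fibulins link elastin, microfibrils and cells. FBLN1 fell from 57.2 ± 0.950 to 36.1 ± 1.36 FPKM (1.59-fold, adjusted p = 0.000111) and FBLN2 from 23.4 ± 0.413 to 19.3 ± 0.258 FPKM (1.21-fold, adjusted p = 0.00232). FBLN5 was at 16.1, 13.4 and 14.1 FPKM in control and 10.5, 10.4 and 13.0 FPKM in Agrimol B libraries. The gap between the groups was narrow (adjusted p = 0.0366), and the call was lost without control replicate 1 or 3 (adjusted p = 0.0983 and 0.0725) or Agrimol B replicate 1 or 2 (adjusted p = 0.103 and 0.104). Elastin itself, ELN, was at or below 0.0787 FPKM in every library.

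The 4 latent TGF-beta binding proteins, which store the growth factor in the matrix, did not move as 1 group. LTBP3 fell from 17.5, 16.0 and 15.3 FPKM to 11.1, 10.4 and 10.8 FPKM (1.51-fold, adjusted p = 0.000831). LTBP4 rose from 16.0, 14.6 and 15.3 FPKM to 20.8, 19.8 and 19.1 FPKM (1.299-fold, adjusted p = 0.00274). LTBP4 exceeded LTBP3 in every Agrimol B library, while the levels of the 2 genes overlapped in control. LTBP1, at lower levels, rose from 1.11, 1.19 and 1.32 FPKM to 1.78, 2.14 and 1.89 FPKM (1.61-fold, adjusted p = 0.00506). LTBP2 was higher by 0.24 on the log2 scale, from 1.29 ± 0.117 to 1.71 ± 0.109 FPKM (adjusted p = 0.0267). That call was lost without control replicate 2 or 3 (adjusted p = 0.0558 and 0.0764), without Agrimol B replicate 1 or 2 (adjusted p = 0.0753 and 0.0700), and with quantile normalization (adjusted p = 0.0659). With a pseudocount of 0.1 FPKM the differences of LTBP1 and LTBP2 read 0.64 and 0.38.

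The microfibril-associated glycoproteins were low. MFAP2, which binds fibrillin, was at 5.02 ± 0.282 and 4.46 ± 0.538 FPKM, an interval of -0.36 to 0.07 (adjusted p = 0.212), although its highest Agrimol B library (4.77 FPKM) lay just under its lowest control library (4.84 FPKM). MFAP4 was at 1.297, 1.12 and 1.68 FPKM in control and 0.139, 0.301 and 0.333 FPKM in Agrimol B libraries, and MFAP5 at 0.814, 0.593 and 0.284 FPKM and 0.131, 0.0599 and 0.249 FPKM. The libraries of both genes were separate, with all Agrimol B values lower, but their means over the 6 libraries were under 1 FPKM and they were not tested.

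Of the 3 proteoglycans tested outside the basement membrane, 2 fell (66.7%, against 21.4% of all tested genes) and none rose (against 30.6%). The most abundant was BGN, biglycan, a small leucine-rich proteoglycan of bone. It was at 38.8, 35.3 and 18.4 FPKM in control and 25.8, 23.1 and 13.7 FPKM in Agrimol B libraries. The third replicate was the lowest in both groups, the groups overlapped, and the interval was wide (-1.36 to 0.32, adjusted p = 0.250). Without control replicate 3 the difference of -0.52 became -0.84 (adjusted p = 0.0545), and without Agrimol B replicate 3 it became -0.26 (adjusted p = 0.561). LUM, lumican, a collagen-binding relative of biglycan (chromosome 12, 91102629 to 91111831, minus strand), was at 5.84, 2.52 and 5.77 FPKM in control and 0.910, 0.771 and 1.01 FPKM in Agrimol B libraries. Control replicate 2 was the lowest control library by far but lay above every treated one, and LUM fell 5.25-fold (difference -1.53, adjusted p = 0.00420). VCAN, versican, a large hyaluronan-binding proteoglycan, fell 1.66-fold from 7.15, 7.30 and 6.81 FPKM to 4.53, 4.30 and 3.99 FPKM (adjusted p = 0.000450). DCN, decorin, was at or below 0.0392 FPKM in every library.

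In the basement membrane group 7 of 10 members fell (70%, against 21.4% of all tested genes) and 1 rose (10%, against 30.6%). TINAGL1, a matricellular protein of basement membranes (chromosome 1, 31576485 to 31587686, plus strand), fell 4.60-fold from 33.4, 33.9 and 33.1 FPKM to 7.70, 7.71 and 6.41 FPKM (difference -2.06, adjusted p = 1.97e-05). Both groups were tight and far apart. NID2, nidogen-2, which bridges laminin and collagen IV networks (chromosome 14, 52004803 to 52069228, minus strand), fell 3.03-fold from 8.84, 8.74 and 9.08 FPKM to 2.85, 3.11 and 2.85 FPKM (difference -1.33, adjusted p = 2.82e-05). Exons of RTRAF on the opposite strand cover 30.0% of its exonic bases. RTRAF, examined after its values were seen, was at 65.4 ± 3.15 FPKM in control and 79.45, 128.4 and 81.61 FPKM in Agrimol B libraries. It was not called (limma adjusted p = 0.0574), and any part of its reads in the NID2 values was not tested. NID1, nidogen-1, was at 31.0, 28.8 and 30.1 FPKM in control and 27.1, 26.1 and 27.2 FPKM in Agrimol B libraries. This 1.12-fold difference (adjusted p = 0.0301) was lost without control replicate 1 or 3 (adjusted p = 0.0856 and 0.0782) or any 1 Agrimol B replicate (0.0557, 0.0881 and 0.0553).

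Of the 5 laminin chains on the list, 3 fell, 1 rose and 1 was not called, beside 21.4% lower and 30.6% higher over all tested genes. The alpha chain LAMA5, of the laminins of mature basement membranes, fell from 46.4, 39.7 and 41.4 FPKM to 31.8, 27.0 and 31.0 FPKM (1.42-fold, adjusted p = 0.00431). LAMA4, an alpha chain of vascular and mesenchymal laminins, was at 2.53, 1.41 and 2.04 FPKM in control and 0.979, 1.18 and 0.988 FPKM in Agrimol B libraries. It fell by 0.53 on the log2 scale (0.83 with a pseudocount of 0.1 FPKM), and its call (adjusted p = 0.0238) was lost without control replicate 3 (0.0670) or Agrimol B replicate 1 or 3 (0.0685 and 0.0686). The beta chain LAMB1, the most abundant laminin chain on the list, was at 56.5, 58.9 and 59.3 FPKM in control and 59.8, 58.0 and 58.0 FPKM in Agrimol B libraries, overlapping within an interval of -0.08 to 0.10 (adjusted p = 0.870). LAMB2 rose from 16.0, 16.3 and 16.0 FPKM to 18.3, 19.1 and 21.0 FPKM (1.21-fold, adjusted p = 0.0125), with a call lost by quantile normalization, where adjusted p reached 0.05. The gamma chain LAMC1, shared by most laminins, fell 1.26-fold from 42.6 ± 1.00 to 33.8 ± 0.722 FPKM (adjusted p = 0.00107).

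Of the heparan sulfate proteoglycans of basement membranes, AGRN, agrin, was at 43.3 ± 1.97 and 41.2 ± 2.08 FPKM with overlapping libraries (interval -0.21 to 0.07, adjusted p = 0.336). HSPG2, perlecan, fell 1.67-fold from 4.43, 3.86 and 3.88 FPKM to 2.81, 2.01 and 2.47 FPKM (adjusted p = 0.00510). Perlecan was thus the far less abundant of the pair in both groups.

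**Figure D3:**
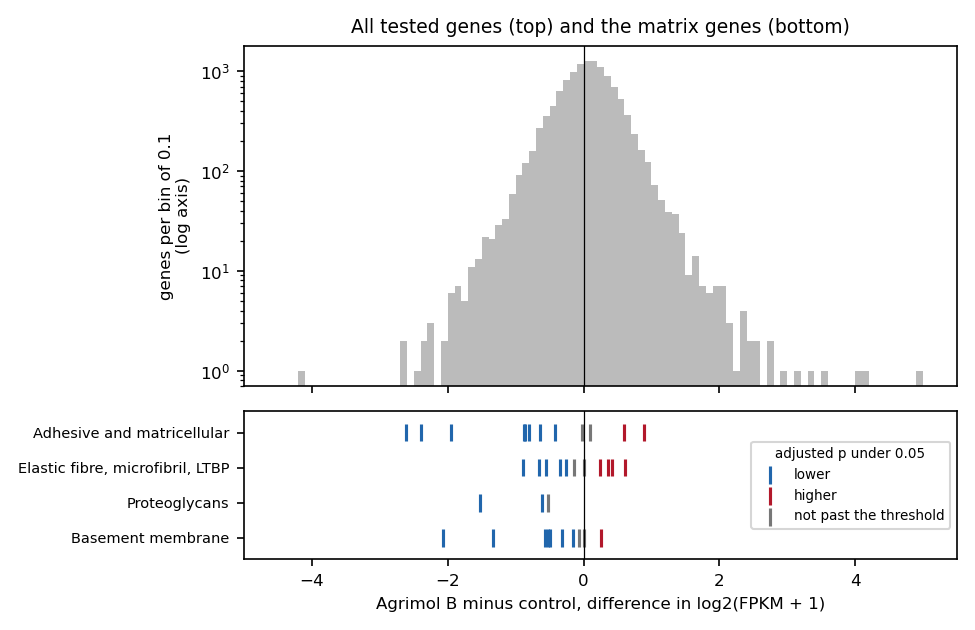
Top: number of genes per bin of 0.1 in log2 difference, Agrimol B minus control, for all 12143 tested genes on a log axis. Bottom: each tick is 1 of the 36 matrix genes, blue if lower, red if higher and grey if not past adjusted p 0.05. The ticks run from -2.61 to 0.89 and have a median of -0.46, beside 0.07 for all genes.

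To set related chains against each other, the ratio of their FPKM values was taken within each library for 8 pairs. With 3 libraries a group the exact permutation test, two-sided, cannot give a p below 0.1, which 7 of 8 pairs reached (adjusted p = 0.114 over the 8). Single genes were already separate between the groups in 62.2% of the tested table, and the share for ratios of other gene pairs was not computed, so the ratios are given as a description. The ratio of NID1 to NID2 was 3.51, 3.30 and 3.31 in control and 9.51, 8.38 and 9.52 in Agrimol B libraries. The ratio of LTBP1 to LTBP3 went from 0.0632, 0.0744 and 0.0867 to 0.161, 0.207 and 0.175. THBS1 stood at 4.44, 4.13 and 4.68 times THBS2 in control and at 2.02, 2.31 and 2.11 times in Agrimol B libraries. FBN1 to FBN2 fell from 0.298, 0.289 and 0.293 to 0.195, 0.179 and 0.201. In these 4 pairs no library of one group reached the other. OLFML2A to OLFML2B, FBLN1 to FBLN2 and LAMB1 to LAMB2 were also lower without overlap, with log2 differences of the ratio of -1.15, -0.39 and -0.25. The ratio of LAMA4 to LAMA5 overlapped between the groups (exact permutation p = 1).

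**Figure D4:**
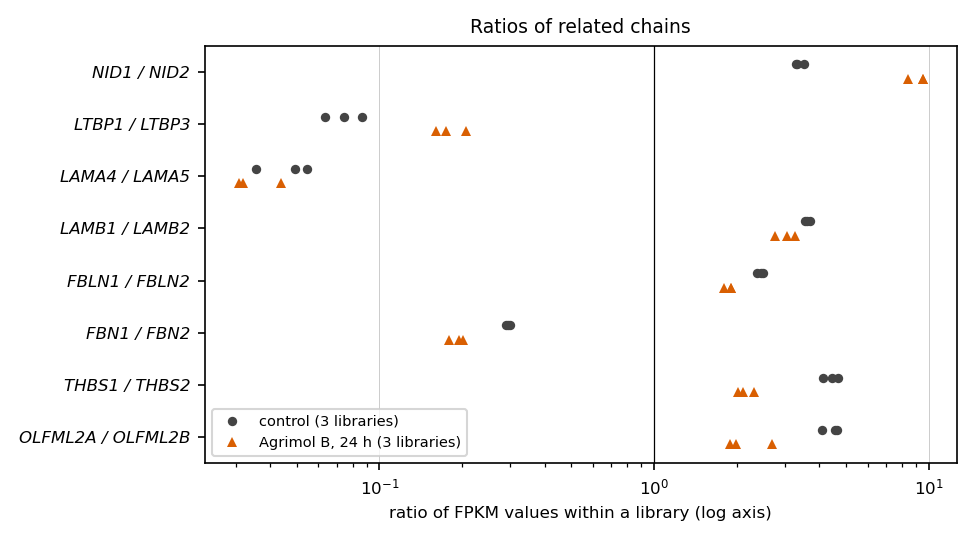
Ratio of the FPKM values of 2 related genes within each library, on a log axis, for 8 pairs. Circles are control and triangles Agrimol B libraries. The groups are separate in 7 pairs, and only LAMA4 to LAMA5 overlaps.

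Other genes of the matrix pathway were read from lists chosen by function, also with earlier results of these data known. Of 25 tested matrix genes outside the members, 13 fell and 4 rose, with a median difference of -0.26, beside 21.4% lower and 30.6% higher over all tested genes. EMILIN3, a relative of EMILIN1, fell 2.75-fold from 5.70 ± 0.111 FPKM (adjusted p = 3.77e-05) and OLFML1, a relative of OLFML3, 3.95-fold from 1.77 ± 0.172 to 0.449 ± 0.0967 FPKM (adjusted p = 0.000294). OLFML1 passed the filter through its control libraries alone and was below it without control replicate 1 or 2. LAMB3, a beta chain of epithelial laminin, rose from 3.19, 2.88 and 2.56 FPKM to 6.36, 8.01 and 7.88 FPKM (2.58-fold, adjusted p = 0.000376). LAMA1, an alpha chain named after its values were seen, rose from 31.7, 35.3 and 34.3 FPKM to 53.1, 51.5 and 49.3 FPKM (adjusted p = 0.000367). It exceeded LAMA5 in all 3 Agrimol B libraries and was below LAMA5 in all 3 control libraries.

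Of 26 tested receptors for these proteins, 6 fell (23.1%) and 5 rose (19.2%), with a median of 0.03, shares near or below the 21.4% and 30.6% of all tested genes. The syndecan SDC2 fell 2.33-fold from 53.2 ± 0.281 FPKM (adjusted p = 1.39e-05) and the collagen receptor DDR1 2.11-fold (adjusted p = 0.000632), while the collagen-binding integrin chain ITGA11 rose 1.90-fold (adjusted p = 0.000571). Of 37 tested genes that build or modify the glycosaminoglycan chains of proteoglycans, 15 rose (40.5%, against 30.6%) and 7 fell (18.9%, against 21.4%), with a median of -0.03. CHPF, which polymerises chondroitin, rose 2.28-fold to 48.8 ± 0.859 FPKM (adjusted p = 1.44e-05). The heparan sulfate sulfotransferase HS6ST1 and the sulfatase SULF2 fell 2.46-fold and 2.64-fold (adjusted p = 0.00325 and 0.000743).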

How the data were processed

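The authors deposited 1 FPKM table covering all 6 libraries. Per the submitters' processing notes, the tools were cutadapt, Trimmomatic, FastQC and HISAT and the build hg38, with no roles stated. Which program computed FPKM, with what annotation, strand setting or filters, is not stated there. Per the labels, the kit (KAPA) kept strand and selected mRNA. Control columns were matched to samples by number, since their letters stand in another order than in the labels.

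On the log2(FPKM + 1) scale, every gene averaging 1 FPKM or more was tested with limma 3.58.1 in R 4.3.3 (two-sided; a group term and a mean-variance trend). P-values were adjusted by Benjamini-Hochberg across the whole tested table. The fit was tested on simulated data. All members are named, with up to 3 called genes of largest difference from each other list. Promoters are from RefSeq (GRCh38.p14), limited in print to windows without annotated exons. Coordinates and exon overlaps are from GENCODE 29. Members and lists were chosen with earlier results of these data known, and the motifs after the values were seen. Python 3.11.15 drew the figures. In the osteoblast list, 1 marker is not reported here.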

Additional observations from a re-analysis of the deposited data

How the results depend on the processing

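Calls were recomputed under 13 alternatives: a pseudocount of 0.1 FPKM, no filter, a filter of 5 FPKM, median-ratio scaling, quantile normalization, robust moderation, each library left out, and a replicate block. Of the 29 called members, 24 kept their call in every alternative that tested them, 5 lost it in some (FBLN5, LTBP2, NID1, LAMA4 and LAMB2), and 0 changed direction. The count of changed members was 22 with a filter of 5 FPKM, which tested 28 members and left 4 higher, and 31 with no filter, where MFAP4 and MFAP5 were added. Leaving out 1 library gave 25 to 28 changed members (6 to 7 higher, 19 to 22 lower), and 11 to 15 of the other matrix genes, the lowest without control replicate 1. Differences near 0 changed sign. That of FN1 became 0.022 with quantile normalization and ran from -0.048 to 0.017 with 1 library left out. That of FBN1 became -0.060 with median-ratio scaling and -0.080 with quantile normalization (-0.026 to 0.057 with 1 library left out), and that of LAMB1 -0.058 and -0.021 (-0.013 to 0.022). The log2 difference of the LAMA4 to LAMA5 ratio ran from -0.15 to 0.030 with 1 library left out. The cause was not tested.

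The labels do not say whether the replicate numbers pair the libraries. Over the tested genes, deviations from the group means of same-numbered libraries correlated at 0.0373, -0.00575 and -0.0146. Values near 0 over the whole table cannot exclude pairing that acts on a few genes. With the replicate block 27 members were called, 26 of them among the 29. FBLN5, NID1 and LAMA4 lost their call (adjusted p = 0.0597, 0.0522 and 0.0538), and BGN gained one (adjusted p = 0.00628).

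Read numbers are unknown, so counting error cannot be given for genes near 1 FPKM such as LTBP1, LTBP2, THBS3, LAMA4 and OLFML2B.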
